A study of Homo sapiens with 12 samples.

Results

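AP-1 is a family of dimeric transcription factors, and 8 of its genes were followed here in LNCaP cells, an androgen-sensitive line grown from a lymph node metastasis of prostate cancer. The genes were taken by symbol from the deposited expression tables: FOS, FOSB, FOSL1, FOSL2, JUN, JUNB, JUND and ATF3. They are 8 of 60835 gene symbols, and all 8 were found in the tables of every library. Poly(A) RNA of 12 libraries was sequenced, 3 biological replicates in each of 4 groups. LNCaP cells received shRNA against FOXA1, or the control shRNA that belongs to that experiment, and other cells received shRNA against TRIM28, or the control shRNA of the TRIM28 experiment. FOXA1 is a forkhead pioneer factor that opens chromatin for other transcription factors, and TRIM28 is a corepressor that KRAB zinc finger proteins bring to DNA. The treatment labels name no other agent. The genotype labels of TRIM28 knockdown replicates 2 and 3, and of replicates 2 and 3 of both controls, name other genes than FOXA1 or TRIM28, so groups were not taken from them. The sources used here do not give the hairpin sequences, the time after delivery or whether the cells were selected.

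AP-1 dimers are built from basic leucine zipper (bZIP) proteins. FOS proteins do not form stable dimers with themselves and depend on a JUN partner, whereas JUN proteins can pair with each other, with FOS proteins or with ATF proteins. FOS-JUN dimers prefer the TPA response element, and dimers with ATF proteins prefer the related cAMP response element. FOS, FOSB, JUN, JUNB and ATF3 are immediate early genes, which respond within minutes to serum, stress or growth factors through MAP kinases and the serum response factor SRF. FOSL1 and FOSL2, which encode Fra-type proteins without the strong activation domain of FOS, respond later.

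The promoter sites below are shown because AP-1 genes are known to be regulated by their own products, and because one of the knocked-down proteins is a forkhead factor. A RefSeq window (assembly GRCh38.p14, 250 bases before to 50 after a gene's start) was found for 7 of the 8 genes. FOSL1 had none in the tables used here. The windows were searched on both strands for the TPA response element TGANTCA, the cAMP response element TGACGTCA, the variant TGACATCA known from JUN, and the forkhead motif TGTTTAC. Capitals mark the match, and each line gives the strand of the gene, 5′ to 3′.
FOSL2: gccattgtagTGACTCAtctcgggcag
JUN: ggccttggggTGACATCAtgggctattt
ATF3: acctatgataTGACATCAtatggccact
JUND: gccgcccccaTGACGTCAacccacaagg
JUNB: ccgtggccgcTGTTTACaaggacacgc
The FOSL2 stretch lies at chr2:28392852-28392878 on the plus strand, inside the gene's span in the deposited tables, and its TPA response element covers bases 5 to 11 after the RefSeq start. The JUN stretch lies at chr1:58784097-58784124 on the minus strand, with its match at -67 to -60 before the start. The ATF3 stretch lies at chr1:212565274-212565301 on the plus strand, with the same 8 letters at -123 to -116. The JUND stretch lies at chr19:18281805-18281832 on the minus strand, with a cAMP response element at -200 to -193. The JUNB stretch lies at chr19:12791310-12791336 on the plus strand, with a forkhead motif at -166 to -160. Among all 35093 RefSeq windows of this length, 7.71% hold TGANTCA, 2.61% hold TGACATCA, 1.85% hold TGACGTCA and 3.42% hold TGTTTAC. The windows of FOS and FOSB and the other of the 2 ATF3 windows held none of the 4 motifs. These are matches of letters only, and no measurement of binding was made in these libraries.

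Library totals ranged from 12256092 to 15152890 counts. FOXA1 fell to 29.5%, 28.7% and 29.2% of its control mean in the 3 FOXA1 knockdown libraries, and TRIM28 to 31.9%, 28.2% and 14.0% in the 3 TRIM28 knockdown libraries. FOXA1 also fell in the TRIM28 knockdown, to 47.1%, 42.6% and 70.0% of the TRIM28 control mean (log2 fold change -0.90, SE 0.17, edgeR adjusted p = 0.00550, and -1.15 without replicate 3, adjusted p = 1.86e-16). All 8 luminal prostate markers looked for were detected in every library, among them KLK3 at 29.3 to 134 CPM (counts scaled to the size of each library) and TMPRSS2 at 150.1 to 349 CPM. Among the TRIM28 knockdown libraries, replicate 3 did not resemble the other 2. Its counts differed from those of replicates 1 and 2 by a chi-square per degree of freedom of 24.3 and 22.1, against 3.03 to 6.05 for the other pairs of replicates in the 4 groups. Of 8 stromal marker genes, 6 had at least 1 CPM and all 6 were highest in that library. The stromal sum was 436 CPM in replicate 3, against 31.0 and 40.1 CPM in knockdown replicates 1 and 2 and 29.9 to 34.7 CPM in the TRIM28 control. The TRIM28 results of the AP-1 genes and the counts of each gene list are therefore given with and without replicate 3, and the genes of the other lists named as called in the TRIM28 knockdown were also called without it.

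The 8 genes spanned a wide range of levels in the 6 control libraries. By FPKM, a level per kilobase of gene length, ATF3 was highest at 135 ± 13.9 and JUND came next at 111 ± 14.7 (SD, n = 6). Their ranges overlapped, at 121 to 158 FPKM for ATF3 and 93.7 to 131 FPKM for JUND. JUN followed at 69.0 ± 8.43 FPKM, with no overlap with JUND. JUNB at 14.2 ± 0.825 FPKM was the least abundant JUN gene. FOS, at 7.94 ± 1.24 FPKM, was the highest of the FOS genes, above FOSL2 at 4.52 ± 0.398 FPKM, and their ranges did not overlap. FOSB at 0.326 ± 0.117 FPKM and FOSL1 at 0.176 ± 0.0603 FPKM lay at the bottom with overlapping ranges, at 6 to 21 and 2 to 7 counts per library. Per gene length, ATF3 and each JUN gene were above every FOS gene in all 6 control libraries.

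**Figure D1:**
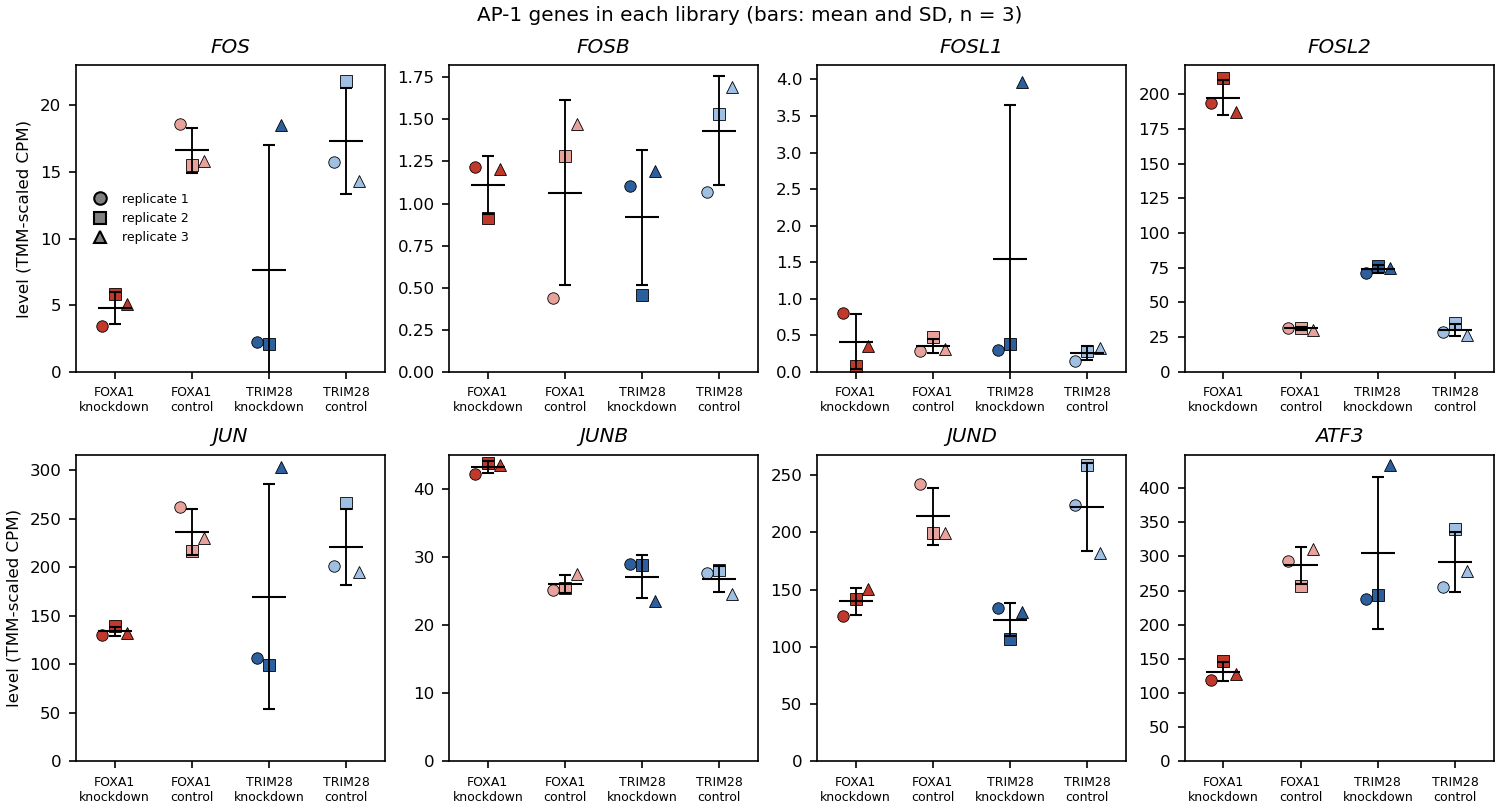
Level of each AP-1 gene in every library, in TMM-scaled CPM on a linear axis, 1 panel per gene, with knockdown groups left of their controls and a line and bars for the mean and SD of 3 libraries (the lower bars of FOS and FOSL1 in the TRIM28 knockdown run below 0 and are cut at the axis). FOSL2 is at 187 to 211.5 CPM in the FOXA1 knockdown and 71.2 to 76.4 CPM in the TRIM28 knockdown, above all control libraries, and the triangle of TRIM28 knockdown replicate 3 lies far above the other 2 libraries of its group for FOS, FOSL1, JUN and ATF3.

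FOXA1 knockdown changed 6 of the 7 AP-1 genes that could be tested, 2 upward and 4 downward. FOSL2 and JUNB rose, and FOS, JUN, JUND and ATF3 fell. Among all 14953 genes tested 52.4% passed the same threshold (26.1% higher and 26.3% lower), so a high share of changed members was not particular to the family. The threshold was an adjusted p of 0.05 in edgeR's quasi-likelihood test with Benjamini-Hochberg adjustment over all tested genes. The median log2 fold change of the 7 genes was -0.62, beside -0.02 over all tested genes. In bulk RNA a lower level can mean fewer cells with the transcript or less transcript per cell, and these cannot be told apart.

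FOSL2 had the largest change of the 7 tested genes. It stood at 193, 211.5 and 187 CPM in FOXA1 knockdown cells, against 31.8, 31.9 and 30.2 CPM in their control cells. The knockdown libraries were at 598% to 676% of the control mean, far outside the spread of either group. The log2 fold change was 2.65 (SE 0.06, edgeR adjusted p = 1.6e-23), which is 6.28-fold. FOSL2 shares bases with FOSL2-AS1 on the opposite strand and with AC104695.3, and the sources used here do not say whether counting used strand. FOSL2-AS1 averaged 0.377 CPM in FOXA1 knockdown cells and 0.326 CPM in control cells, and AC104695.3 was lower still.

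FOS, the founding immediate early member, moved the other way. It had 51, 77 and 72 counts in FOXA1 knockdown cells, against 254, 230 and 204 counts in control cells, or 4.80 ± 1.23 CPM and 16.6 ± 1.69 CPM (SD, n = 3 each). The groups did not overlap, and the log2 fold change was -1.80 (SE 0.16, edgeR adjusted p = 1.448e-10). FOSB had 18, 12 and 17 counts in knockdown cells and 6, 19 and 19 counts in control cells. Its groups overlapped, and its log2 fold change of 0.06 had an approximate 95% interval of -0.74 to 0.87. Intervals given here reach a fixed normal-curve multiple of the SE to each side. They do not come from the F-test and can be too narrow. FOSL1, with 12, 1 and 5 counts in knockdown cells and 4, 7 and 4 counts in control cells, did not reach the count filter and was not tested.

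Within the JUN genes the change was also in opposite directions. JUNB, which often opposes JUN in growth control, had 42.2, 43.8 and 43.6 CPM in FOXA1 knockdown cells, against 25.2, 25.5 and 27.6 CPM in control cells. All 3 knockdown libraries were above all 3 controls, with a log2 fold change of 0.72 (SE 0.08, edgeR adjusted p = 7.504e-09). JUNB lies within HOOK2 on the opposite strand, and HOOK2 had 51.1 ± 3.21 CPM in knockdown cells and 63.1 ± 1.71 CPM in control cells, the other direction. JUN itself stood at 130.1, 139 and 132 CPM in knockdown cells, against 262, 217 and 229.7 CPM in control cells (log2 fold change -0.83, SE 0.06, edgeR adjusted p = 3.117e-12). JUND, the most constitutive JUN gene, stood at 127, 142 and 150.5 CPM in knockdown cells, against 242, 199.7 and 199.7 CPM in control cells. Its log2 fold change was -0.62 (SE 0.09, edgeR adjusted p = 0.0001864), and again the groups did not overlap.

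ATF3, a stress-induced factor that can pair with JUN proteins, had 119, 146.5 and 127 CPM in FOXA1 knockdown cells, against 293, 257 and 311 CPM in control cells. All knockdown libraries lay below all controls, at 41.5% to 51.0% of the control mean. The log2 fold change was -1.14 (SE 0.09, edgeR adjusted p = 1.523e-06). The calls of FOSL2, JUNB, JUND and ATF3 held in all 14 alternative settings of this comparison. Those of FOS and JUN held in 13 of 14: with all 12 libraries in the fit FOS had an adjusted p of 0.0809 and JUN of 0.1372, at log2 fold changes of -1.80 and -0.82.

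**Figure D2:**
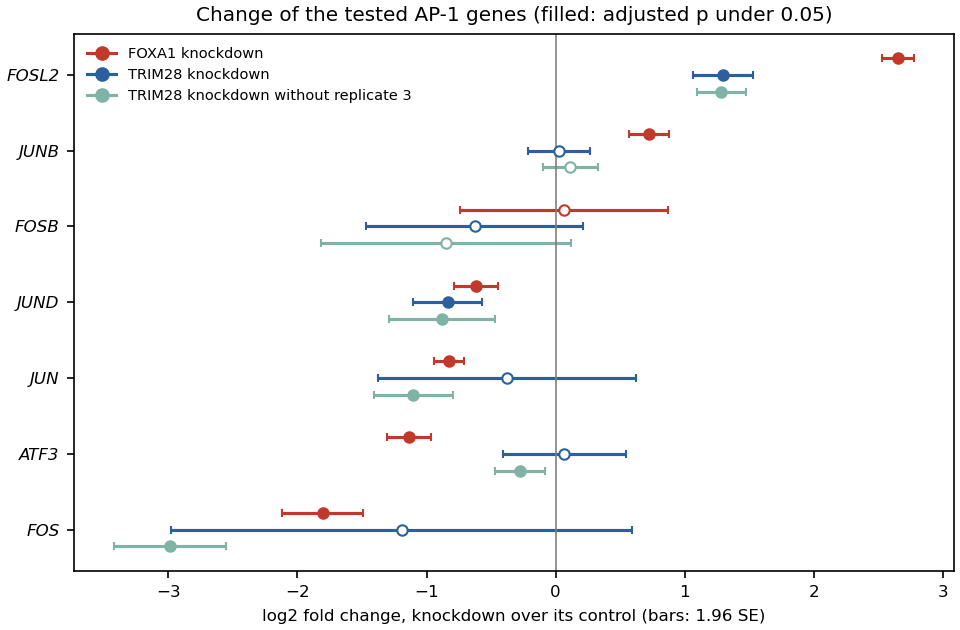
Log2 fold change of the 7 tested AP-1 genes in each knockdown over its control, with filled points for an adjusted p under 0.05. Bars are approximate 95% intervals, a fixed normal-curve multiple of the SE to each side, and can be too narrow. The lowest row per gene is the TRIM28 comparison without knockdown replicate 3. FOSL2 is at 2.65 and 1.30 and lies right of 0 in both knockdowns, JUND lies left of 0 in both, and FOS moves to -2.99 when replicate 3 is left out.

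TRIM28 knockdown raised FOSL2 and lowered JUND, and no other AP-1 gene passed the test with all libraries. These are 2 of 7 tested genes, beside 26.7% of all 14981 genes tested (13.3% higher and 13.3% lower). Without knockdown replicate 3, 5 of 7 passed, 1 higher and 4 lower, beside 45.0% of 15475 genes (21.5% higher and 23.5% lower). The added calls were FOS, JUN and ATF3, all lower. FOSL2 and JUND were called in both.

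FOSL2 had 968, 1000 and 945 counts in TRIM28 knockdown cells, against 406, 483 and 332 counts in their control cells, or 74.2 ± 2.70 CPM and 30.3 ± 4.41 CPM (SD, n = 3 each). The 3 knockdown libraries were at 235% to 252% of the control mean, and replicate 3 did not stand apart for this gene. The log2 fold change was 1.30 (SE 0.12, edgeR adjusted p = 0.0001985), and 1.28 without replicate 3 (adjusted p = 3.007e-13). JUND had 133.5, 107 and 131 CPM in knockdown cells, against 224, 259 and 182 CPM in control cells. Its groups did not overlap, and the log2 fold change was -0.84 (SE 0.14, edgeR adjusted p = 0.00252), and -0.88 without replicate 3 (adjusted p = 0.03891).

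FOS showed how far replicate 3 departed from the other libraries. It had 31, 27 and 233 counts in TRIM28 knockdown replicates 1, 2 and 3, against 221, 299 and 178 counts in control cells. Replicates 1 and 2 were at 13.2% and 11.9% of the control mean and replicate 3 was at 107%. With all libraries the log2 fold change was -1.19 (SE 0.91, edgeR adjusted p = 0.3912), and without replicate 3 it was -2.99 (SE 0.22, adjusted p = 1.35e-13). FOSB had 15, 6 and 15 counts in knockdown cells and 15, 21 and 21 counts in control cells. Its log2 fold change of -0.63 had an approximate 95% interval of -1.47 to 0.21 (-0.85 without replicate 3, adjusted p = 0.1622).

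FOSL1 had 4, 5 and 50 counts in TRIM28 knockdown replicates 1, 2 and 3, against 2, 4 and 4 counts in control cells. The gene did not reach the filter, and replicate 3 held most of its knockdown counts. With no filter edgeR gave it a log2 fold change of 2.58 (adjusted p = 0.0004742), a value that rests on that library.

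JUN stood at 106, 99.1 and 304 CPM in TRIM28 knockdown replicates 1, 2 and 3, against 201, 266 and 195 CPM in control cells. Replicates 1 and 2 lay below every control library and replicate 3 above every one. The log2 fold change was -0.38 with all libraries (SE 0.51, edgeR adjusted p = 0.6327) and -1.10 without replicate 3 (SE 0.16, adjusted p = 0.002269). ATF3 had the same order, with 237, 244 and 434 CPM in knockdown replicates 1, 2 and 3, against 256, 340.4 and 279 CPM in control cells. Its log2 fold change was 0.07 with all libraries (edgeR adjusted p = 0.8604) and -0.28 without replicate 3 (adjusted p = 0.03992). JUNB stood at 29.04, 28.9 and 23.5 CPM in knockdown cells and 27.7, 28.1 and 24.6 CPM in control cells. The groups overlapped, and the log2 fold change of 0.03 had an approximate 95% interval of -0.22 to 0.27 (0.11 without replicate 3, adjusted p = 0.4165).

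Beside these values, FOS, FOSB, JUN and ATF3 were highest in replicate 3 of the TRIM28 knockdown libraries. These are 4 of the 7 AP-1 genes with at least 1 CPM on average over the 12 libraries. Of all 14104 genes at that level 41.7% were highest in that library. FOSB was at 1.19 CPM in replicate 3 and 1.10 CPM in replicate 1. FOSL1 averaged less than 1 CPM over the 12 libraries and was also highest in replicate 3. The stromal sum there was 436 CPM, with COL3A1 at 184 CPM in replicate 3, against 2.13 and 6.26 CPM in replicates 1 and 2 and 1.90 to 2.07 CPM in the control. Summed leukocyte markers were 1.67 to 2.21 CPM in the TRIM28 knockdown and 0.571 to 1.53 CPM in its control, and endothelial markers 10.8 to 15.4 CPM and 5.48 to 7.79 CPM. No stromal marker was at 0 in all libraries of a group. The luminal sum was 1823 CPM in replicate 3, against 1958 and 1908 CPM in replicates 1 and 2 and 2498 to 2567 CPM in the control. Their part in the AP-1 values was not tested.

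**Figure D3:**
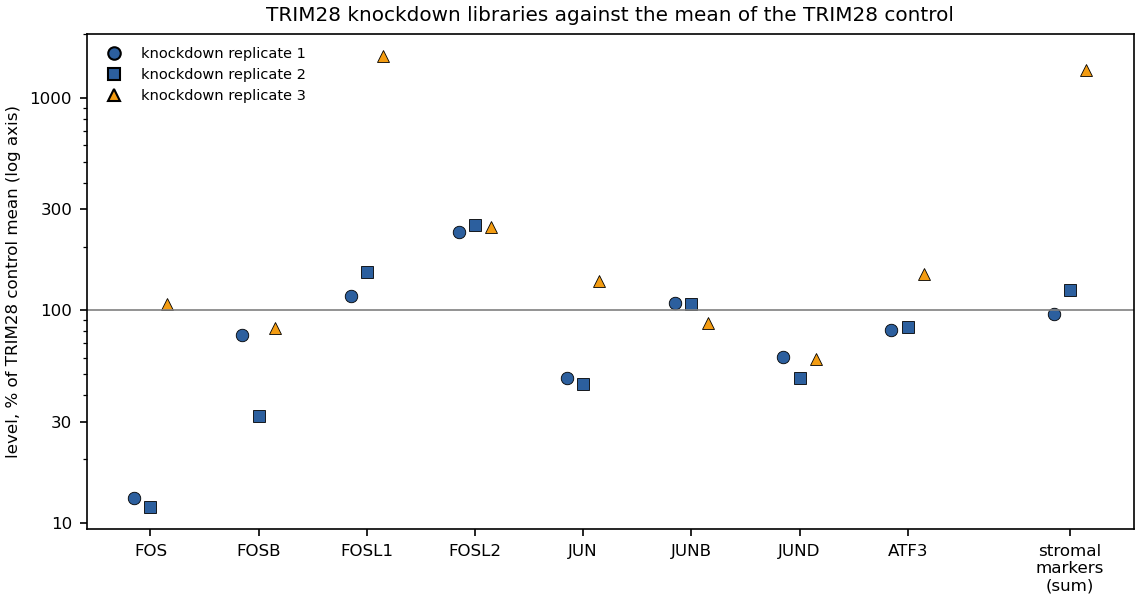
Level of each AP-1 gene and of the summed stromal markers in the 3 TRIM28 knockdown libraries, as a percentage of the TRIM28 control mean on a log axis, with a line at 100%. Replicate 3 (triangles) is at 107% for FOS and 137.5% for JUN, where replicates 1 and 2 are at 11.9% to 13.2% and 44.9% to 48.1%, while the 3 libraries lie close together for FOSL2 at 235% to 252%.

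The effects of the 2 knockdowns were then set against each other in 1 fit over the 12 libraries, where 10.6% of 15921 genes passed (4.59% higher and 5.98% lower). For 3 of 7 AP-1 genes the effects differed. The rise of FOSL2 was smaller in the TRIM28 knockdown than in the FOXA1 knockdown, by a log2 difference of -1.37 (SE 0.13, edgeR adjusted p = 3.064e-06). For JUNB the difference was -0.71 (SE 0.14, edgeR adjusted p = 0.002867), with a log2 fold change of 0.03 in the TRIM28 knockdown and 0.72 in the FOXA1 knockdown. For ATF3 it was 1.197 (SE 0.32, edgeR adjusted p = 0.04173), with 0.07 in the TRIM28 knockdown and -1.14 in the FOXA1 knockdown. This last call held in 7 of 17 alternative settings, where adjusted p ran from 0.009705 to 0.118. The libraries whose removal alone ended it were each of the 3 FOXA1 knockdown and each of the 3 FOXA1 control libraries and TRIM28 control replicates 1 and 3, with adjusted p between 0.05953 and 0.09821, and without TRIM28 knockdown replicate 3 the difference was 0.85 (adjusted p = 0.0138).

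JUND fell in both knockdowns, and its difference of -0.23 had an approximate 95% interval of -0.58 to 0.12. For JUN the difference was 0.44 with an interval of -0.65 to 1.53, and it turned to -0.29 without TRIM28 knockdown replicate 3 (edgeR adjusted p = 0.3632). For FOSB it was -0.70 with an interval of -1.94 to 0.54. For FOS it was 0.60 with an interval of -1.36 to 2.56, and it turned to -1.197 without TRIM28 knockdown replicate 3 (edgeR adjusted p = 0.00327). In that fit 21.4% of 16499 genes passed (8.64% higher and 12.7% lower).

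Both control groups carried control shRNA and were compared in the same way. The log2 differences of the 7 tested AP-1 genes, TRIM28 control over FOXA1 control, lay between -0.09 for JUN and 0.43 for FOSB, and none passed. Of all 14839 genes tested 0.0% passed in edgeR, 635 had an unadjusted p under 0.05, and DESeq2 called 0 as well with 390 under that unadjusted p. FOSL2 stood at 30.3 ± 4.41 CPM in the TRIM28 control and 31.3 ± 0.976 CPM in the FOXA1 control (SD, n = 3 each).

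Because FOSL2 and FOS moved in opposite directions, the makeup of the FOS genes differed between knockdown and control cells. FOSL2 took 92.2%, 91.1% and 90.4% of the summed FPKM of the 4 FOS genes in FOXA1 knockdown cells, against 34.2%, 37.3% and 35.7% in control cells. FOS took 5.25%, 8.05% and 7.86% in FOXA1 knockdown cells, against 63.7%, 57.9% and 59.7% in control cells, so the leading FOS gene was FOSL2 in every knockdown library and FOS in every control library. The summed FPKM of the 4 genes was 31.7 ± 2.16 in FOXA1 knockdown cells and 12.8 ± 0.706 in control cells (SD, n = 3 each). In TRIM28 knockdown replicates 1, 2 and 3 FOSL2 took 87.3%, 89.6% and 49.4% of the FOS genes, against 35.4%, 32.4% and 34.8% in control cells. FOSL2 was the leading FOS gene in all 3 TRIM28 knockdown libraries, with FOS at 38.9% in replicate 3. These shares use level per gene length, and they change when length is ignored: by CPM FOSL2 took 96.9% in FOXA1 knockdown cells and 63.4% in control cells, and it then led the FOS genes on average in the control cells too.

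Among the JUN genes the order of levels per gene length was kept in the FOXA1 knockdown. JUND took 51.1% to 54.8% of their summed FPKM in knockdown cells and 54.7% to 57.1% in control cells. JUNB took 17.2% ± 0.583 in knockdown cells and 7.27% ± 0.888 in control cells, and JUN took 29.9% ± 1.36 and 36.7% ± 0.562 (SD, n = 3 each). When length is ignored the order was not kept. By CPM JUN led on average in FOXA1 control cells, at 49.6% against 44.9% for JUND. In FOXA1 knockdown cells JUND led by CPM, at 44.1% against 42.2% for JUN. The JUN genes summed to 135 ± 8.06 FPKM in FOXA1 knockdown cells and 193 ± 18.8 FPKM in control cells. In TRIM28 knockdown replicates 1, 2 and 3 JUN took 27.7%, 29.9% and 53.6% of the JUN genes, against 31.9%, 35.3% and 35.7% in control cells, so JUN was the leading JUN gene in replicate 3 and JUND in the other 2. All 8 AP-1 genes together summed to 228 ± 15.4 FPKM in FOXA1 knockdown cells and 339 ± 25.0 FPKM in control cells. In the TRIM28 experiment the sum was 257, 244 and 414 FPKM in knockdown replicates 1, 2 and 3, and 329.6, 399.6 and 309.6 FPKM in control cells. ATF3 took 26.1%, 28.5% and 25.9% of the 8-gene sum in FOXA1 knockdown cells and 37.4%, 38.3% and 42.3% in control cells. In TRIM28 knockdown cells it took 46.5%, 50.3% and 51.2%, against 37.2%, 39.5% and 42.6% in control cells, a higher share in all 3 libraries of the knockdown, replicate 3 included. The level of ATF3 itself was not higher in all of them. By CPM it was at 81.2% and 83.5% of the control mean in knockdown replicates 1 and 2 and at 148.5% in replicate 3.

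**Figure D4:**
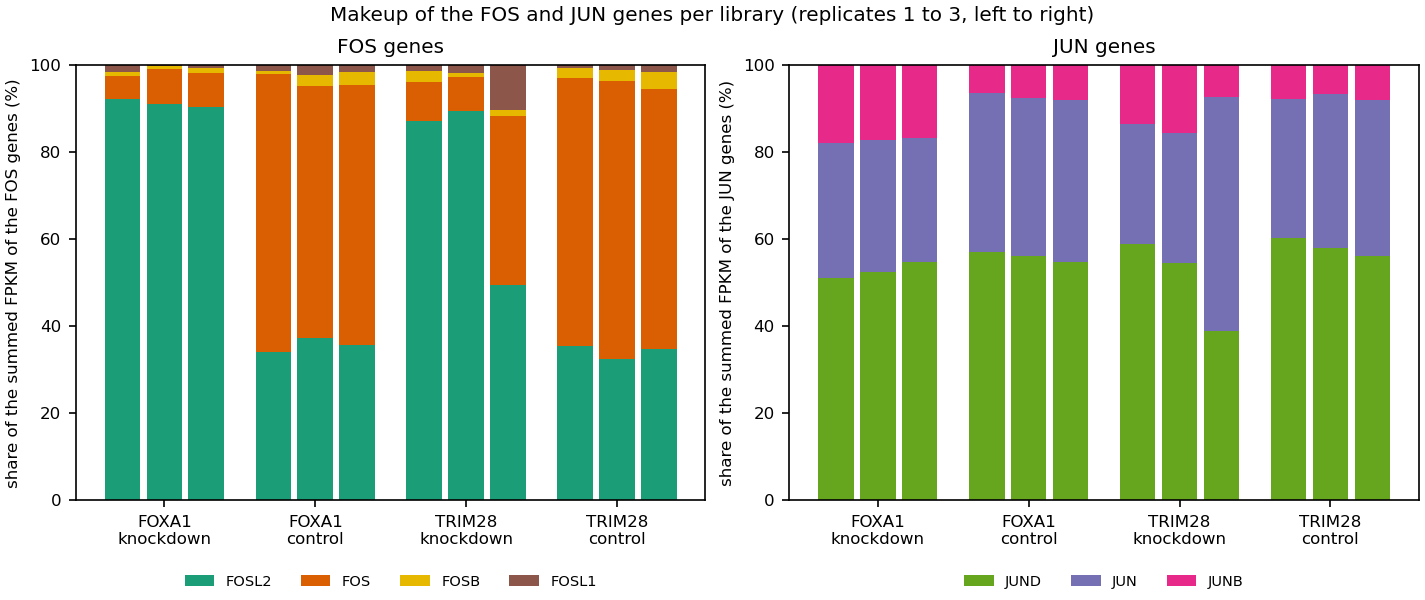
Share of each gene in the summed FPKM of the 4 FOS genes (left) and of the 3 JUN genes (right), in percent, 1 stacked bar per library with knockdown groups left of their controls. FOSL2 fills 90.4% to 92.2% of the FOS bars in the FOXA1 knockdown and 34.2% to 37.3% in its control, and the bar of TRIM28 knockdown replicate 3 differs from the first 2 in both panels.

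The other bZIP genes whose products pair with JUN or FOS proteins were lower or did not pass the test, with 1 exception. In the FOXA1 knockdown 10 of the 12 listed genes were tested, 1 passed upward and 4 downward, beside 26.1% and 26.3% of all tested genes, with a median log2 fold change of -0.36. The gene that rose was MAF, a large Maf protein that binds its own response elements and can pair with FOS and JUN. It stood at 51.9, 54.3 and 48.7 CPM in FOXA1 knockdown cells, against 9.36, 9.30 and 7.91 CPM in control cells (log2 fold change 2.53, SE 0.10, edgeR adjusted p = 6.311e-19). ATF7 and ATF2, which pair with JUN and bind the cAMP response element, fell by 0.57 (SE 0.09, adjusted p = 4.867e-06) and 0.29 (SE 0.07, adjusted p = 0.0004456) on the log2 scale.

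In the TRIM28 knockdown the same 10 partner genes gave 0 upward calls and 1 downward call, with a median of -0.17. Of all tested genes 13.3% passed each way. MAFF, a small Maf protein, had 7.50, 7.10 and 11.1 CPM in knockdown cells, against 13.6, 19.6 and 15.2 CPM in control cells (log2 fold change -0.91, SE 0.21, edgeR adjusted p = 0.01118). Without TRIM28 control replicate 2 its adjusted p was 0.06835. MAF stood at 35.6, 34.5 and 8.42 CPM in TRIM28 knockdown replicates 1, 2 and 3, against 7.86, 8.98 and 6.69 CPM in control cells. It was high in replicates 1 and 2 and inside the control range in replicate 3, with a log2 fold change of 1.75 (edgeR adjusted p = 0.05585), and 2.16 without replicate 3 (adjusted p = 5.003e-16). Without replicate 3 the list had 1 upward and 4 downward calls, beside 21.5% and 23.5% of all tested genes.

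Of the kinases and factors upstream of AP-1, 5 of 16 tested in the FOXA1 knockdown rose and 5 fell, near the 26.1% and 26.3% of all tested genes, with a median of 0.03 on the log2 scale. SRF, which binds the serum response element of the FOS promoter, stood at 117 ± 3.27 CPM in FOXA1 knockdown cells and 206 ± 8.18 CPM in control cells (SD, n = 3 each; log2 fold change -0.82, SE 0.05, edgeR adjusted p = 5.613e-14). ELK4, one of the ternary complex factors that bind beside SRF, fell by 0.75 on the log2 scale (SE 0.04, adjusted p = 2.735e-14). MAP2K7, a kinase that activates JNK, fell by 0.53 (SE 0.06, adjusted p = 5.328e-08). MAP3K1, which acts above it in the same cascade, rose by 0.58 (SE 0.07, adjusted p = 4.845e-08).

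After TRIM28 knockdown 5 of these 16 genes rose and 4 fell, beside 13.3% of all tested genes each way. Without replicate 3, 5 rose and 7 fell, beside 21.5% and 23.5% of all tested genes. MAP2K4, the other JNK-activating kinase, stood at 115, 109 and 105 CPM in knockdown cells, against 65.3, 70.0 and 65.8 CPM in control cells (log2 fold change 0.72, SE 0.09, edgeR adjusted p = 0.0006727). ELK3 rose by 0.89 (SE 0.15, adjusted p = 0.002598). ELK4 and MAP2K7 fell by 0.55 (SE 0.11, adjusted p = 0.006502) and 0.52 (SE 0.11, adjusted p = 0.007094). ELK4 fell in both knockdowns, and in replicate 3 of the TRIM28 knockdown it stood at 276 CPM, against 206 and 211 CPM in replicates 1 and 2.

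MAP kinase feedback genes, which encode inducible phosphatases and Sprouty-type inhibitors, were called in both directions. In the FOXA1 knockdown 4 of 13 tested genes rose and 5 fell, with a median of 0.07, and both counts lie near the 26.1% and 26.3% of all tested genes. DUSP2 rose by 1.38 on the log2 scale (SE 0.08, edgeR adjusted p = 3.005e-14), to 49.9 ± 2.23 CPM in knockdown cells, against 19.2 ± 1.44 CPM in control cells (SD, n = 3 each). SPRY4 was low in both groups, at 9, 10 and 8 counts in knockdown cells and 32, 38 and 40 counts in control cells (log2 fold change -2.04, SE 0.34, adjusted p = 1.146e-05). It reached the filter only with its control libraries, so its call is a description. SPRED2 and SPRY1 fell by 0.70 (SE 0.09, adjusted p = 3.846e-07) and 0.63 (SE 0.10, adjusted p = 2.881e-06). In the TRIM28 knockdown 2 genes of 13 rose and 1 fell, beside 13.3% of all tested genes each way. Without replicate 3, 3 rose and 5 fell, beside 21.5% and 23.5% of all tested genes. DUSP4 stood at 35.5, 37.7 and 42.0 CPM in TRIM28 knockdown cells, against 66.7, 70.0 and 66.7 CPM in control cells (log2 fold change -0.81, SE 0.10, adjusted p = 0.0006878). SPRED1 rose by 0.69 (SE 0.11, adjusted p = 0.002248). DUSP14 passed with all libraries (0.41, adjusted p = 0.03667), and its adjusted p ran from 0.07092 to 0.1522 without any 1 of the 3 control libraries or of knockdown replicates 1 and 2.

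Of the ubiquitin ligase genes known to act on JUN, 3 of 4 were tested. COP1, which targets JUN for degradation, stood at 51.9 ± 2.87 CPM in FOXA1 knockdown cells and 40.7 ± 3.77 CPM in control cells (SD, n = 3 each; log2 fold change 0.34, SE 0.08, edgeR adjusted p = 0.000422). In the TRIM28 knockdown COP1 had a log2 fold change of 0.36 (SE 0.10, adjusted p = 0.02438), a call that was lost without any 1 of the 3 control libraries or without knockdown replicate 2, at adjusted p of 0.0557 to 0.1251. FBXW7 had 0.02 in the FOXA1 knockdown and 0.33 in the TRIM28 knockdown (adjusted p = 0.05081), and ITCH had 0.05 and 0.12. Without replicate 3, 2 of the 3 genes rose in the TRIM28 knockdown, beside 21.5% of all tested genes.

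Among immediate early genes outside the AP-1 family, 8 of 17 tested in the FOXA1 knockdown rose and 1 fell, beside 26.1% and 26.3% of all tested genes, with a median log2 fold change of 0.52, beside -0.02 over all genes. Median values in single knockdown libraries, set against the control mean, were 0.50, 0.58 and 0.50. IER2 stood at 18.4 ± 2.40 CPM in knockdown cells and 9.72 ± 0.804 CPM in control cells (SD, n = 3 each; log2 fold change 0.92, SE 0.13, edgeR adjusted p = 5.737e-07). KLF4 and KLF10, Krüppel-type factors, rose by 0.70 (SE 0.11, adjusted p = 3.253e-06) and 0.69 (SE 0.07, adjusted p = 1.885e-09). ZFP36L1, which promotes decay of AU-rich transcripts, rose by 0.53 (SE 0.05, adjusted p = 2.133e-09).

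In the TRIM28 knockdown 5 of 16 tested immediate early genes rose and 2 fell, beside 13.3% of all tested genes each way, with a median of 0.49. Without replicate 3, 5 rose and 3 fell, beside 21.5% and 23.5% of all tested genes. KLF10 rose by 0.73 (SE 0.15, edgeR adjusted p = 0.007426), a call that ended without TRIM28 control replicate 1 (adjusted p = 0.05185). ZFP36L1 rose by 0.41 (SE 0.08, adjusted p = 0.004508). The genes that fell were NR4A1, an orphan nuclear receptor, and ARC. NR4A1 stood at 18.5, 16.6 and 25.1 CPM in TRIM28 knockdown cells, against 36.8, 40.8 and 33.3 CPM in control cells (log2 fold change -0.87, SE 0.16, adjusted p = 0.00351). ARC stood at 3.68, 3.67 and 3.97 CPM in knockdown cells, against 8.00, 7.96 and 7.25 CPM in control cells (log2 fold change -1.03, SE 0.19, adjusted p = 0.003884).

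Of 26 textbook AP-1 targets listed, 13 could be tested in each knockdown, because the others were too low in LNCaP cells. In the FOXA1 knockdown 7 rose and 1 fell, beside 26.1% and 26.3% of all tested genes. CCND1, the cyclin D gene that drives entry into S phase, stood at 760, 758 and 707 CPM in knockdown cells, against 290.1, 274.5 and 282 CPM in control cells (log2 fold change 1.39, SE 0.04, edgeR adjusted p = 1.348e-20). HMOX1, which encodes the inducible heme oxygenase, stood at 184, 245 and 210.4 CPM in knockdown cells, against 75.3, 69.4 and 71.3 CPM in control cells (log2 fold change 1.56, SE 0.10, adjusted p = 1.325e-06). ITGA2, an integrin chain gene, fell by 0.62 (SE 0.07, adjusted p = 2.502e-08). IVL, the involucrin gene of keratinocytes, had 35, 33 and 48 counts in FOXA1 knockdown cells and 0, 1 and 0 counts in control cells (adjusted p = 1.59e-09). IVL reached the filter through its knockdown libraries alone, so such genes had to differ to be tested, and the list's counts and medians are descriptions only.

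TRIM28 knockdown cells had 5 of 13 tested AP-1 targets that rose and 0 that fell, beside 13.3% of all tested genes each way. Without replicate 3 they had 5 and 1, beside 21.5% and 23.5% of all tested genes. CCND1 stood at 664, 676 and 403 CPM in TRIM28 knockdown replicates 1, 2 and 3, against 261, 291 and 259.8 CPM in control cells (log2 fold change 1.11, SE 0.19, edgeR adjusted p = 0.004417). HMOX1 had 304.5, 315 and 112 CPM in knockdown replicates 1, 2 and 3, against 72.9, 88.9 and 76.6 CPM in control cells. Both genes were above every control in all 3 knockdown libraries and lowest among them in replicate 3. MMP10, a stromelysin, had 21, 13 and 13 counts in TRIM28 knockdown cells and 1, 4 and 2 counts in control cells (adjusted p = 0.006416), and it too reached the filter through the knockdown libraries. MMP13, a collagenase, had 18, 24 and 36 counts in knockdown cells and 7, 7 and 12 counts in control cells (log2 fold change 1.61, SE 0.44, adjusted p = 0.02311), and it likewise reached the filter only with its knockdown libraries. Its call was lost without TRIM28 control replicate 1 or 2 or knockdown replicate 2, at adjusted p of 0.05764 to 0.1021. VEGFA, an angiogenic factor gene, rose by 0.32 (SE 0.09, adjusted p = 0.02398), a call lost without any 1 of the 3 control libraries or without knockdown replicate 2, at adjusted p of 0.05048 to 0.1301.

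**Figure D5:**
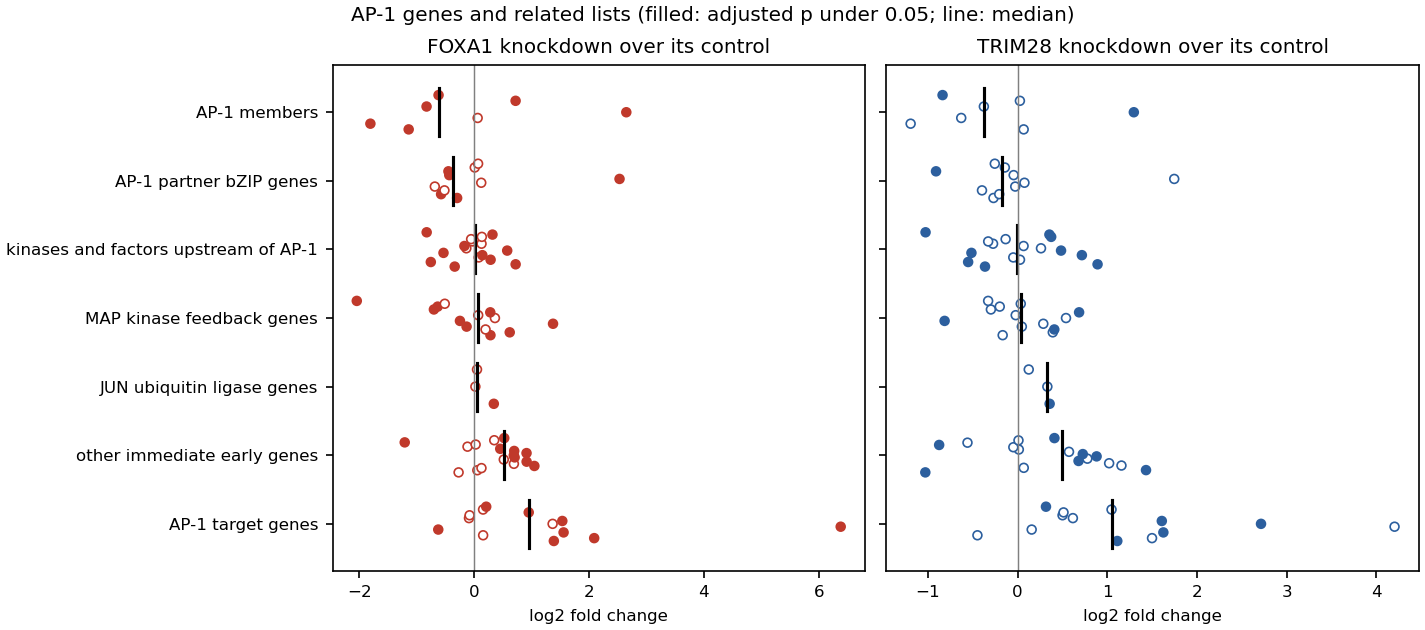
Log2 fold change of each tested gene of the AP-1 family and of 6 related lists, FOXA1 knockdown over its control on the left and TRIM28 knockdown over its control on the right, with filled points for an adjusted p under 0.05 and a black line at each list's median. The medians of the other immediate early genes are 0.52 on the left and 0.49 on the right. Those of the AP-1 family are -0.62 and -0.38. Without TRIM28 knockdown replicate 3, which the right panel includes, the TRIM28 medians were 0.42 for the immediate early genes and -0.85 for the AP-1 family. The fitted value of IVL, far right in the left panel, rests on control counts of 0, 1 and 0.

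Genes whose pattern over the 12 libraries lay nearest to that of each AP-1 gene were found among 10643 genes by the root mean square difference of log2 CPM after centring. Nearest to FOSL2 were EPHB2, ENO2 and CLU, at 0.16, 0.17 and 0.18 log2 units. EPHB2 averaged 40.1 CPM in FOXA1 knockdown cells and 7.45 CPM in their control, and 17.2 CPM in TRIM28 knockdown cells and 6.90 CPM in theirs. BHLHE40, which encodes a basic helix-loop-helix repressor, was nearest to JUN, at 0.10 log2 units, ahead of MTOR and CTSV at 0.19 each. BHLHE40 averaged 145 CPM in FOXA1 knockdown cells and 257.5 CPM in their control, and 181 CPM in TRIM28 knockdown cells and 240.4 CPM in theirs.

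For JUNB the nearest were MAST4, CD63 and MAP3K11, at 0.08 log2 units each, and for JUND PABPC4, MUS81 and H1-10, at 0.10 to 0.11. ATF3 had FOXP1, ADGRV1 and PCAT1 nearest, at 0.16 to 0.17. FOS had no close neighbour: TDRD1, TSC22D3 and TGIF1 were nearest at 0.52 to 0.55. TGIF1 averaged 53.4 CPM in FOXA1 knockdown cells and 225 CPM in their control, and 79.5 CPM in TRIM28 knockdown cells and 207.5 CPM in theirs. FOSB, near the counting floor, had TMEM53, DGKZP1 and TINAGL1 at 0.33 to 0.35. The points share libraries and depth, and the measure is a description.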

How the data were processed

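Poly(A) RNA-seq of 12 LNCaP libraries was analysed. Raw read counts per gene came from 2 tables that the authors deposited, 1 per knockdown experiment. FPKM values came from another deposited table, which holds every library. FPKM is the count divided by gene length and library total, which held for all 33045 genes that could be checked within a relative tolerance of 0.001. Per the submitters' processing notes the build was GRCh38 (hg38). Aligner, counter, strand use and annotation: not given in the sources used here. The batch label is 1 throughout, so batches could not be compared. Control groups follow the titles and knockdown groups the treatment labels, which name shRNA. The knockdown titles begin with SH control, the column headers abbreviate knockdown as SI, and some genotype labels name other genes. Values were mapped to groups by column name, and 0 value columns had no sample.

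Counts were tested with edgeR 4.0.16 in R 4.3.3 (TMM scaling, filterByExpr with a minimum count of 10 and a minimum total of 15, robust quasi-likelihood F-tests, two-sided, Benjamini-Hochberg, threshold 0.05), on 6 libraries per knockdown, and on 12 for the difference of effects. Library totals were 12256092 to 15152890, and replicates are biological per the labels. CPM values are TMM-scaled over the 12 libraries. Alternatives were DESeq2 1.42.0, scaling, no filter, a minimum fold of 1.2, each replicate left out, a replicate block, all libraries, and limma 3.58.1 on log2(FPKM + 1) and log2(FPKM + 0.1). The fits were also run on simulated counts. These had the same dispersion for every gene, far fewer changed genes than were called here, and no deviating library. That run therefore does not test the fits under the conditions of these data.

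The AP-1 genes and the gene lists were chosen with earlier results of these data known, so no list was tested as a set. Named genes were the 8 AP-1 genes, FOXA1, TRIM28, up to 4 genes per list and knockdown with the smallest p, and the 3 nearest patterns per AP-1 gene with at least 1 CPM and a range of group means of at least 0.5 (log2). For these, genes with at least 5 CPM were searched. COL3A1 belongs to the stromal list. Some genes that this rule selects are not reported here.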

Additional observations from a re-analysis of the deposited data

Results flagged for a closer look

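The TRIM28 and FOXA1 knockdown effects differed by the test of the difference itself, over 12 libraries in edgeR, for the following named genes. Each value is the TRIM28 knockdown effect minus the FOXA1 knockdown effect on the log2 scale. Among the AP-1 genes it was -1.37 for FOSL2, -0.71 for JUNB and 1.197 for ATF3, of which FOSL2 was higher in both knockdowns. The calls of FOSL2 and JUNB held in all 17 alternative settings, and that of ATF3 in 7 of 17. Among the feedback phosphatases it was -1.10 for DUSP2 (edgeR adjusted p = 0.04843) and -0.58 for DUSP4. For the kinase gene MAP2K4 it was 0.56. It was -0.77 for NR4A1 and 0.77 for ITGA2. In this fit 10.6% of all tested genes passed. For genes outside the AP-1 family the difference under the alternatives is not given here. Without replicate 3 the log2 fold change in the TRIM28 knockdown turned from 0.16 to -0.07 for ITGA2 and moved from 0.29 to 0.53 for DUSP2. For DUSP4, MAP2K4 and NR4A1 it went from -0.81, 0.72 and -0.87 to -0.89, 0.74 and -1.07.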

How the results depend on the processing

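Of the results for single AP-1 genes under the alternatives, 366 kept their direction and side of the threshold, 12 lost a call and 2 gained one. In 11 others the sign turned with no call on either side, and in 2 it turned with a call. Those 2 came from leaving out TRIM28 knockdown replicate 3, which gave ATF3 -0.28 in the TRIM28 knockdown and FOS -1.197 in the difference of effects. With any single library left out these values ranged from -0.28 to 0.22 and from -1.197 to 1.04. The cause was not tested. That setting also raised the AP-1 genes called in the TRIM28 knockdown to 5 of 7 from 2. With single libraries left out, genes called in the TRIM28 knockdown ranged from 1817 to 6966, in the difference from 1176 to 3528, and between the controls from 0 to 2. AP-1 genes called in the TRIM28 knockdown ranged from 2 to 5. With a minimum fold of 1.2 the counts were 4305 (FOXA1), 1625 (TRIM28) and 708 (difference), against 7840, 3993 and 1683 without it. Among others, that setting ended the calls of ATF2 (adjusted p = 0.3074) and COP1 (0.1441) in the FOXA1 knockdown and of ZFP36L1 (0.08163) and MAP2K7 (0.05136) in the TRIM28 knockdown. With no filter 8 genes were called between the controls. Scaled by library size only, 63.4% of calls in the TRIM28 knockdown and 60.0% in the difference were higher, against 49.9% and 43.4% with TMM. With the replicate number as a block 7997, 3846, 1579 and 0 genes were called in the FOXA1 knockdown, the TRIM28 knockdown, the difference and between the controls. The numbers share no source in the labels, and deviations of same-numbered libraries correlated between -0.077 and 0.077 only, so they were not taken as pairs, nor did every library correlate best with its own number. Depth limits FOSB and FOSL1, with at most 21 counts in any control library.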
